A study of Mus musculus with 12 samples.

Results

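The cell division cycle genes described here were 52 mouse genes with roles from the start of the cycle in G1 to cytokinesis, read from an RNA sequencing table of 48709 genes. They were matched by gene name from a list drawn up with earlier results of these data in view, and all 52 passed the filter on low counts and were tested. The cells were macrophages of the mouse peritoneal cavity, the space around the gut, in 4 groups of 3 libraries each. MKO 3 h were cells of Usp5 myeloid knockout mice 3 h after lipopolysaccharide (LPS), a bacterial product that Toll-like receptor 4 recognises, and WT 3 h were wild-type cells with the same treatment. MKO 0 h and WT 0 h were the same genotypes at 0 h, which the series design calls mock, although the treatment label reads LPS for all 12 libraries. Usp5 encodes a deubiquitinase that disassembles unanchored ubiquitin chains. The promoter that drives the myeloid deletion, the strain and the age of the mice were not given in the sources used here. Nothing in the labels ties replicates to separate mice, so a p-value here reflects the spread between libraries alone, and that spread may be technical.

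A cell that enters division passes through G1, in which D-type and E-type cyclins with their kinases release E2F transcription factors from pocket proteins. E2F factors then drive genes for origin licensing, DNA synthesis and nucleotide supply, and genes of mitosis follow in G2 under the MuvB complex with B-Myb and FoxM1, which acts at the cell cycle genes homology region (CHR) of promoters. Most tissue macrophages rest outside the cycle, but the large macrophages of the peritoneal cavity are known to renew in part by local division. The markers that define these large macrophages were near absent from the libraries, as given below. LPS is known to arrest macrophages that were dividing.

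Total counts ran from 14762709 to 20778862 per library. Usp5 stood at 26.9 to 31.4 CPM (counts relative to TMM-scaled library size) in the 6 MKO libraries, against 100.5 to 121 CPM in the 6 WT libraries, which goes with the labels. Replicate 3 of MKO 0 h and replicate 3 of WT 0 h stood apart from their group mates, with correlations of log2 CPM of 0.9856 in MKO 0 h and of 0.9862 and 0.9864 in WT 0 h, against 0.9913 and 0.9907 for the other pair of each group. Malat1, a nuclear RNA gene named here after its values were seen, was at 26.3 CPM in replicate 3 of MKO 0 h and at 201 and 122 CPM in its mates, but at 164 CPM in replicate 3 of WT 0 h and at 31.8 and 29.9 CPM in its mates. At 0 h Malat1 was thus higher in MKO than in WT in replicates 1 and 2 and lower in replicate 3. In fits without replicate 3 of both 0 h groups, genotype at 0 h and this difference between libraries cannot be told apart. Of 8 macrophage markers, Adgre1, Csf1r and Itgam were at 1403 CPM or more in every library, whereas Lyz2 was at 11.8 to 43.9 CPM. Of 6 markers of the large peritoneal macrophage, the defining Gata6, Timd4, Vsig4 and Cxcl13 were at 0.0948 CPM or less in every library, and the 6 summed to 14.5 to 23.7 CPM, mostly Icam2.

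On the per-length scale of the deposited TPM values, Pcna, the sliding clamp of DNA polymerases, had the highest level of the 52 genes with a mean of 583 TPM over all libraries. Ccnd1 followed at 96.3 TPM, Cdk4 at 78.0 TPM, Mcm6 at 58.8 TPM and Mki67 at 42.0 TPM. The lowest were Cenpf and Ttk with 2.04 and 2.01 TPM, and the least covered value was the 43 counts of Ttk in 1 library. Summed over the 52 genes, the level was 1715, 1771 and 1697 CPM in MKO 3 h, against 2563, 2557 and 2549 CPM in WT 3 h. At 0 h the sum was 1677, 1678 and 1701 CPM in MKO, against 2148, 2145 and 2120.3 CPM in WT. The MKO libraries thus lay below the WT libraries at both times without overlap, and the median deviation of the 52 genes from their own means was -0.18 to -0.30 in the 6 MKO libraries and 0.19 to 0.28 in the 6 WT libraries on the log2 scale. The libraries that stood apart had -0.29 in MKO 0 h and 0.21 in WT 0 h, on the same side as their group mates.

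**Figure D1:**
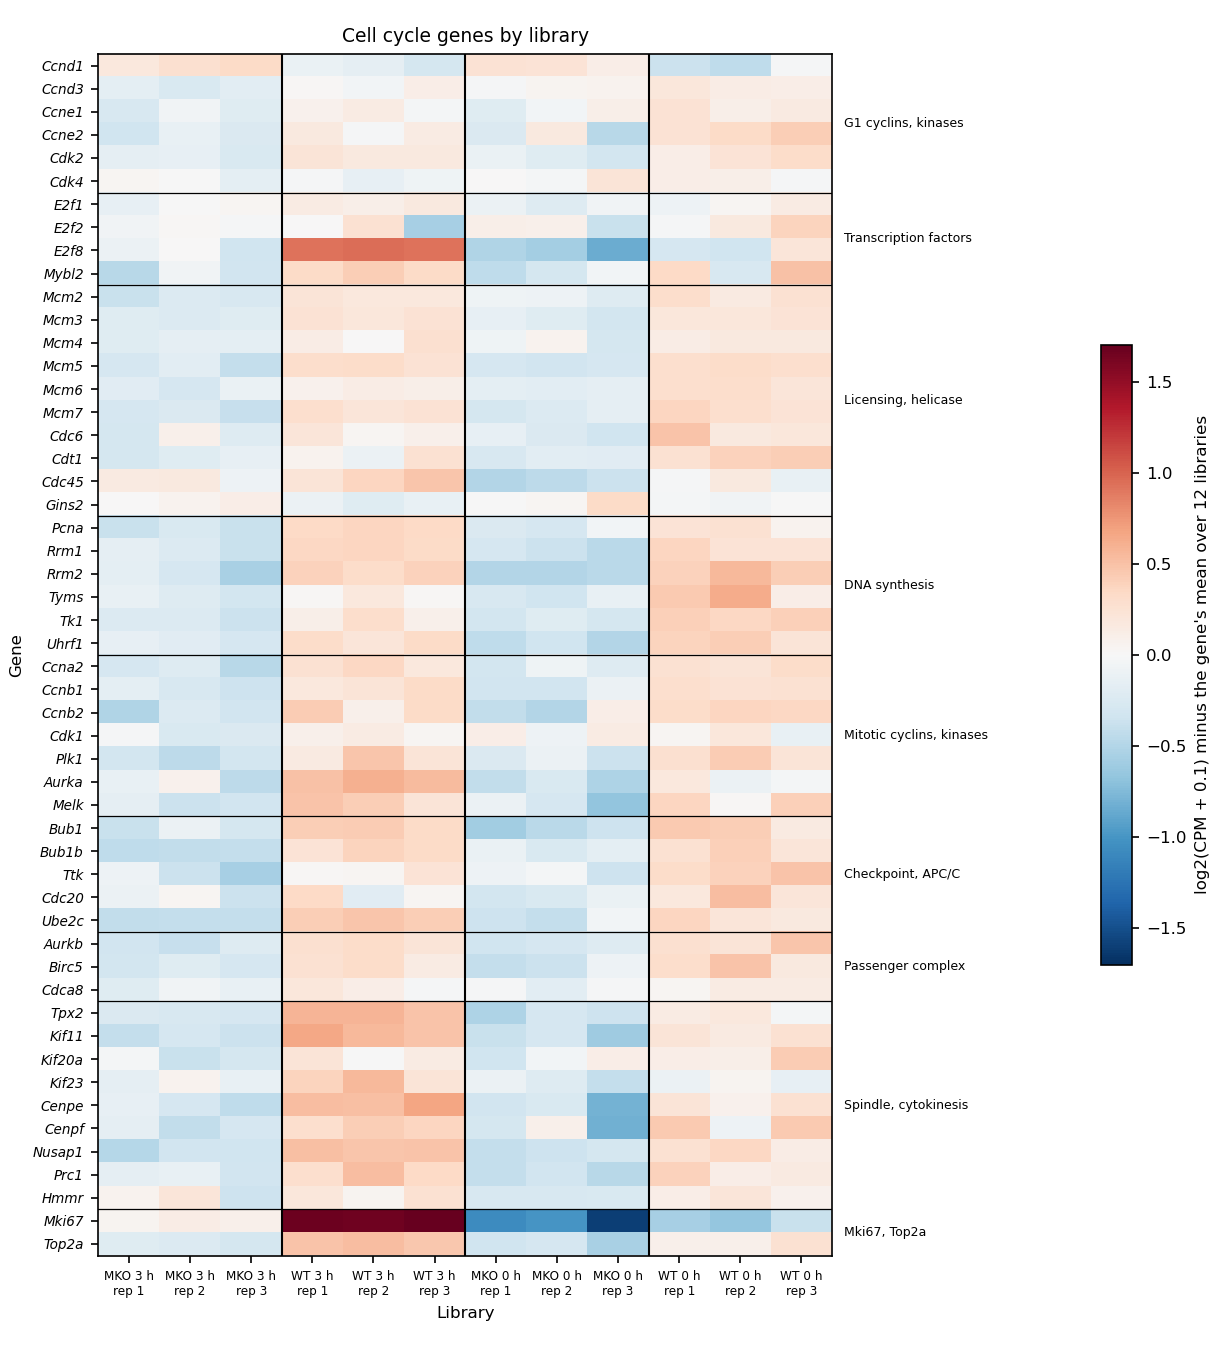
Each row is 1 of the 52 genes in the order of their roles and each column 1 library (rep, replicate), with MKO left of WT at 3 h and then at 0 h. Colour is log2(CPM + 0.1) minus the gene's mean over the 12 libraries. Most rows are blue in the 6 MKO libraries and red in the 6 WT libraries, Ccnd1 is the reverse, and Mki67 and E2f8 are darkest red in WT 3 h.

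Promoter windows of 250 bases before to 50 bases after the transcription start were held by the RefSeq tables (build GRCm38.p6) for 44 of the 52 genes, with 49 windows in all. Ccnd1, Ccne2, Mcm4, Gins2, Ccna2, Aurkb, Tpx2 and Kif20a were not matched. Both strands were searched for the E2F motif as TTCCCGC or TTCGCGC or TTGCCGC or TTGGCGC, the CHR as TTTGAA or TTCGAA, and the CCAAT box as CCAAT. The sequences of 7 genes that were lower in MKO cells at 1 or both times are shown as the 180 bases before the start, 5′ to 3′ on the gene's own strand with the motifs in capitals (on either strand, overlapping motifs run together), to let the G1 and S phase type be compared with the mitosis type. Other genes lower at both times, such as Pcna and Tk1, held neither an E2F motif nor a CHR. The 7 sequences shown were picked by hand as examples. The first 3 are of genes for origin licensing and nucleotide supply and carry E2F motifs and CCAAT boxes: Mcm5 at chr8:75109329-75109508 on the plus strand, Mcm6 at chr1:128359706-128359885 on the minus strand and Rrm1 at chr7:102441515-102441694 on the plus strand.
Mcm5: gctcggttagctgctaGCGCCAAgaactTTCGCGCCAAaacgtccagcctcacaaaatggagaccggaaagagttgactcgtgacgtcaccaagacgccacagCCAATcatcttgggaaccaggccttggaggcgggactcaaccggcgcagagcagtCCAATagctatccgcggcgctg
Mcm6: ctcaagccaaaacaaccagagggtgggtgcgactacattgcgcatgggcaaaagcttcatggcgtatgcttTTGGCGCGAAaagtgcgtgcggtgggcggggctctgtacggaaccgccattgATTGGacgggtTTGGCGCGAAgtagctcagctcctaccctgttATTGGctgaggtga
Rrm1: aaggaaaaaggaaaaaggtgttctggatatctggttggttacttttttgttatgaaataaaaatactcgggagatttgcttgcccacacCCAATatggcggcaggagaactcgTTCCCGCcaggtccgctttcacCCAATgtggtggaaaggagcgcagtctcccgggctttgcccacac
The next 3 are of mitosis genes and carry the CHR with CCAAT boxes: Kif11 at chr19:37376202-37376381 on the plus strand, Top2a at chr11:99024190-99024369 and Cdc20 at chr4:118437344-118437523, both on the minus strand.
Kif11: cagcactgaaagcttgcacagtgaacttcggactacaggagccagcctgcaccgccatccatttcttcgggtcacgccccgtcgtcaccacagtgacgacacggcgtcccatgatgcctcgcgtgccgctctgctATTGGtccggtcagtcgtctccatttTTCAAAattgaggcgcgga
Top2a: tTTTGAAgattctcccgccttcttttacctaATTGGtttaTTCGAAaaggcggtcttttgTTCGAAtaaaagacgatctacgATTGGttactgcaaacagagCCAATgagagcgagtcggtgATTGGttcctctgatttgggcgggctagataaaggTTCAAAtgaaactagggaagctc
Cdc20: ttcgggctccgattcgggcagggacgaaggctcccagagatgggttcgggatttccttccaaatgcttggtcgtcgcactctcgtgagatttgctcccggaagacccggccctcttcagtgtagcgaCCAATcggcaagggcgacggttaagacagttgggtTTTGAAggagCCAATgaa
The last is that of Mki67 at chr7:135716380-135716559 on the minus strand, which holds all 3 motifs and belongs to the gene with the largest response to LPS among the 52.
Mki67: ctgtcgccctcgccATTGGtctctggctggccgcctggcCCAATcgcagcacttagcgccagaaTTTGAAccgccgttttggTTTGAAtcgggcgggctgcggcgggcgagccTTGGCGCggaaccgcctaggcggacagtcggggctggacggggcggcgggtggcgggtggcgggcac

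Among the 23 windows of the mitosis genes 18 (78.3%) held a CHR, 20 (87.0%) a CCAAT box and 4 (17.4%) an E2F motif. Among the 26 windows of the G1 and S phase genes 5 (19.2%) held a CHR, 17 (65.4%) a CCAAT box and 14 (53.8%) an E2F motif. Over all 32851 windows of the table the shares were 19.2% for the CHR, 37.4% for the CCAAT box and 9.57% for the E2F motif. A CHR together with a CCAAT box stood in 18 of the 23 mitosis windows, 5 of the 26 G1 and S phase windows and 7.53% of all windows. In 3 windows of the 52 genes an E2F motif overlapped a CCAAT box. A match of letters is a description of these windows and says nothing of whether a factor binds there.

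**Figure D2:**
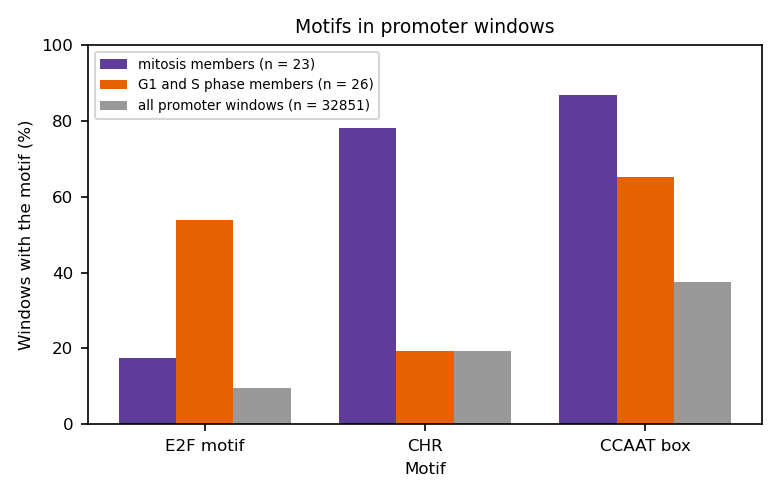
Share of promoter windows (percent) that hold each motif, for 23 windows of mitosis genes, 26 windows of G1 and S phase genes and all 32851 windows. The CHR stands in 78.3% of the mitosis windows and the E2F motif in 53.8% of the G1 and S phase windows.

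Loss of Usp5 went with lower levels of most of these genes, both before and after LPS. At 3 h, 38 of the 52 genes were lower in MKO than in WT at an adjusted p under 0.05 and 1, Ccnd1, was higher, where 42.8% of all 12455 genes tested were called in either direction, 23.0% lower and 19.8% higher. At 0 h, 40 were lower and again Ccnd1 alone was higher among the 52, where 32.9% of all genes were called, 16.4% lower and 16.5% higher. The median log2 fold change (MKO over WT) of the 52 genes was -0.50 at 3 h and -0.51 at 0 h, beside -0.01 and 0.00 over all genes tested. Folds, SE and adjusted p come from edgeR's quasi-likelihood test, with adjustment over all genes tested. In such bulk libraries fewer dividing cells and less RNA of these genes per cell cannot be told apart.

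The calls at 3 h and at 0 h overlapped. The genes lower at both times numbered 34, which is 89.5% of those lower at 3 h and 85.0% of those lower at 0 h. Not all calls were stable. Of the 39 genes called in either direction at 3 h, 32 kept the call whichever library was left out, and 27 under every other alternative. Of the 41 called at 0 h, 32 and 29 did. Called lower at 3 h alone were Ccnd3, Mybl2, Cdk1 and Kif23, and at 0 h alone Ccne2, Cdc6, Cdc45, Tyms, Cdc20 and Hmmr, although the interaction test called none of these 10. Called at neither time were Ccne1, Cdk4, E2f1, E2f2, Gins2, Cdca8 and Kif20a. In values rather than calls, the 3 MKO libraries lay wholly below the 3 WT libraries for 45 of the 52 genes at 3 h and for 41 at 0 h, where this held for 32.5% and 19.8% of all genes tested. They lay wholly above for Ccnd1 and Gins2 at each time, where this held for 28.7% of all genes at 3 h and 19.6% at 0 h. Among the genes lower at both times and with a promoter window, 24 of 30 held an E2F motif or a CHR, and among those called at neither time 2 of 5 did. Those lower at both times without either motif were Pcna, Tk1, Melk, Birc5, Cenpe and Nusap1. The share of all genes with either motif was not counted. Whether the motifs go with the calls was not tested.

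The size of the genotype difference and the number of genes called depended on the scaling. Against library size alone, TMM factors lowered the log2 fold change (MKO over WT) of every gene by 0.25 at 3 h and 0.12 at 0 h. With library size alone 26 genes were lower and 3 higher (Ccnd1, Cdk4 and Gins2) at 3 h, and 33 were lower and 2 higher (Ccnd1 and Gins2) at 0 h. Of all genes 9.63% were then lower and 43.5% higher at 3 h, and 9.59% were lower and 25.8% higher at 0 h. In that scaling Ccnd3, Ccne1, E2f1, Cdc20, Cdca8 and Hmmr changed sign at 3 h. In the deposited TPM values the mean was lower in MKO for 35 genes at 3 h and for 47 at 0 h, with median log2 ratios of -0.18 and -0.37, while all genes tested had median log2 ratios of 0.31 and 0.15. The 52 genes were thus lower relative to all genes in the TPM values as well, but this adds no separate support. The TPM values are the same counts rescaled per gene and per library. For genes with 50 or more counts in every library, the ratio of counts to TPM deviated from this by 0.0% at most. With replicate 3 of both 0 h groups left out, 43 genes were lower and 2 higher at 3 h, and 34 were lower and 1 higher at 0 h. In that fit genotype at 0 h coincides with the Malat1 difference between libraries. With replicates 1 and 2 of each group summed, 33 were lower and 1 higher at 3 h, and 31 were lower and none higher at 0 h. Gins2 was a second gene called higher at 3 h when replicate 3 of MKO 0 h alone was left out.

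**Figure D3:**
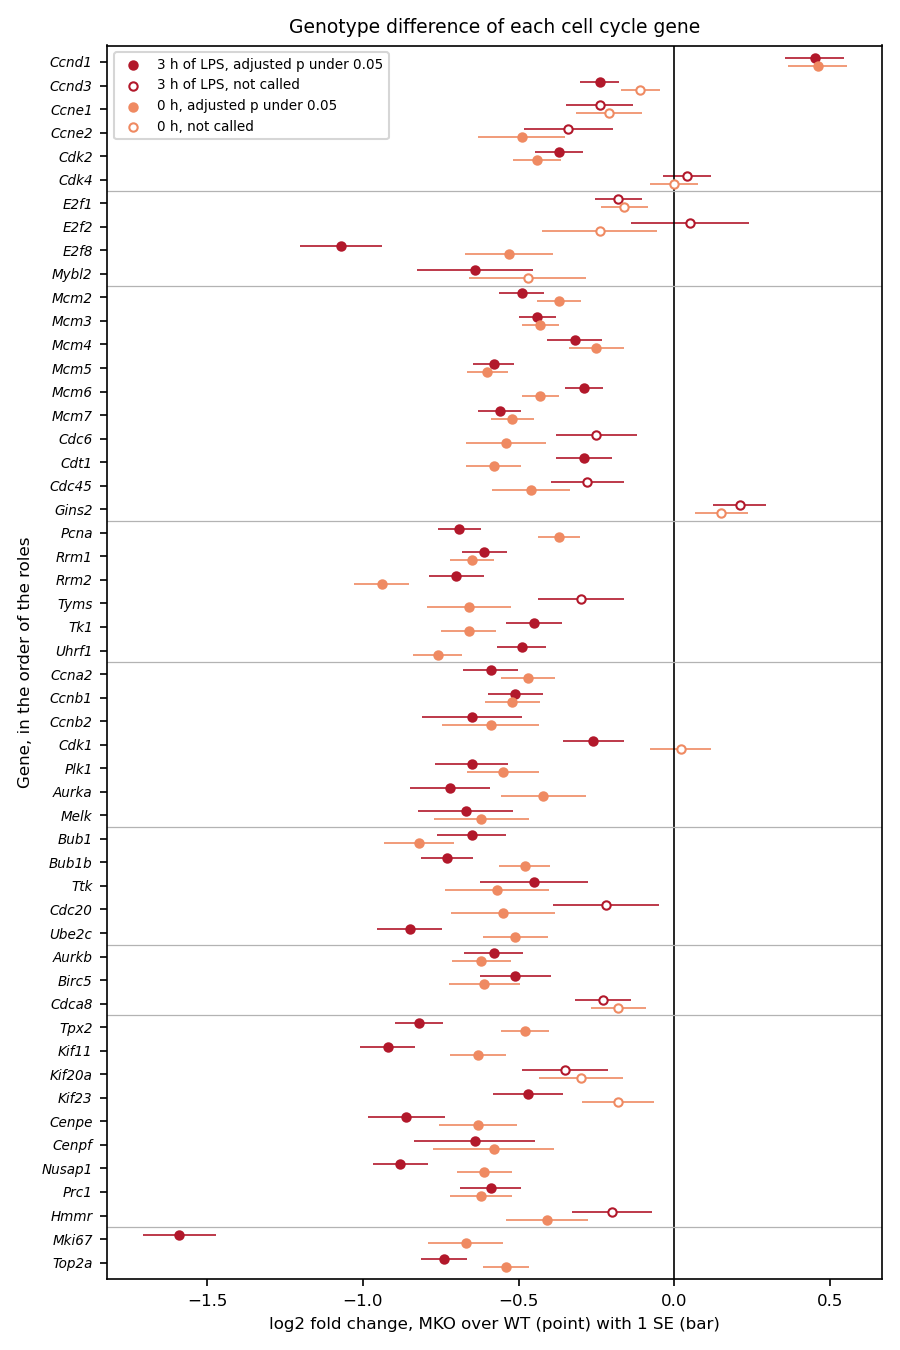
Log2 fold change of MKO over WT (horizontal axis) for each of the 52 genes, at 3 h of LPS (dark red) and at 0 h (orange), with 1 SE as the bar. Filled points have an adjusted p under 0.05 over all genes tested. All but 4 genes lie left of 0 at each time, Ccnd1 lies at 0.45 and 0.46, and Mki67 at 3 h lies farthest left at -1.59.

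In G1, the D-type and E-type cyclins and their kinases had the smallest median difference of the role groups: 2 of 6 genes were lower and 1 was higher at each time, with a median log2 fold change of -0.24 at 3 h and -0.16 at 0 h. Ccnd1, cyclin D1, which opens G1 with Cdk4 or Cdk6 in response to growth factors, was the exception to the set. It stood at 177, 189.8 and 197 CPM in MKO 3 h, against 145, 141 and 128 CPM in WT 3 h. At 0 h Ccnd1 was at 186, 184 and 169 CPM in MKO 0 h, against 122, 116 and 154 CPM in WT 0 h. All MKO values were above all WT values at both times, with log2 fold changes of 0.45 (SE 0.0935 and adjusted p = 0.0015) at 3 h and 0.46 (SE 0.0936 and adjusted p = 0.0017) at 0 h. The replicate 3 that stood apart in WT 0 h was the highest of its group for this gene. Its partner kinase Cdk4 stood at 91.6, 89.6 and 80.04 CPM in MKO 3 h, against 88.4, 81.1 and 85.01 CPM in WT 3 h. At 0 h Cdk4 was at 90.5, 87.7 and 104 CPM in MKO 0 h, against 96.8, 96.2 and 88.8 CPM in WT 0 h. The Cdk4 groups overlapped at both times, and neither difference was called, at 0.04 (SE 0.0777 and adjusted p = 0.74) and 0.00 (SE 0.0773 and adjusted p = 0.98).

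Cdk2, the kinase that pairs with cyclins E and A to start replication, went with the larger part of the set. It was at 22.99, 23.1 and 21.4 CPM in MKO 3 h, against 29.7, 28.7 and 28.6 CPM in WT 3 h. At 0 h Cdk2 was at 23.7, 22.2 and 20.5 CPM in MKO 0 h, against 27.8, 30.2 and 31.8 CPM in WT 0 h. The groups did not overlap, and the log2 fold changes were -0.37 (SE 0.0774 and adjusted p = 0.0016) at 3 h and -0.44 (SE 0.0771 and adjusted p = 0.00058) at 0 h. Ccnd3, cyclin D3, was at 42.8, 40.2 and 42.5 CPM in MKO 3 h, against 49.01, 46.7 and 52.3 CPM in WT 3 h, a difference of -0.24 (SE 0.0633 and adjusted p = 0.0076), which with library size alone was 0.01. At 0 h it was at 47.6, 49.8 and 50.4 CPM in MKO 0 h and 55.2, 52.7 and 52.01 CPM in WT 0 h, and the difference of -0.11 was not called. Of the E-type cyclins, Ccne2 had a log2 fold change of -0.49 (SE 0.14 and adjusted p = 0.015) at 0 h and -0.34 at 3 h, where it was not called, and Ccne1 had -0.24 at 3 h and -0.21 at 0 h, not called at either time.

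Of the 4 transcription factors, 2 were lower at 3 h and 1 at 0 h. E2f8, an atypical E2F that represses E2F targets late in S phase and is itself such a target, had the larger difference. It was at 18.8, 20.4 and 16.1 CPM in MKO 3 h, against 38.4, 39.2 and 38.5 CPM in WT 3 h. At 0 h E2f8 was at 14.1, 13.5 and 11.2 CPM in MKO 0 h, against 16.6, 15.97 and 23.4 CPM in WT 0 h. The groups lay apart, with log2 fold changes of -1.07 (SE 0.132 and adjusted p = 1.8e-05) at 3 h and -0.53 (SE 0.141 and adjusted p = 0.01) at 0 h. The activator E2f1 was at 29.96, 32.6 and 33.5 CPM in MKO 3 h, against 36.2, 35.4 and 37.04 CPM in WT 3 h. At 0 h E2f1 was at 30.8, 28.3 and 31.5 CPM in MKO 0 h, against 30.97, 33.8 and 36.2 CPM in WT 0 h, and was not called with -0.18 and -0.16. E2f2, another activator, was at 8.07, 8.54 and 8.31 CPM in MKO 3 h, against 8.399, 10.1 and 5.66 CPM in WT 3 h. At 0 h E2f2 was at 8.98, 8.96 and 6.43 CPM in MKO 0 h, against 8.28, 9.45 and 10.99 CPM in WT 0 h, where the groups overlapped at both times. Mybl2, which encodes B-Myb, had a log2 fold change of -0.64 (SE 0.188 and adjusted p = 0.013) at 3 h, whereas its -0.47 at 0 h was not called.

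Origin licensing and the replicative helicase were lower as a group, with 7 of 10 genes lower at 3 h and 9 of 10 at 0 h and medians of -0.30 and -0.44. All 6 Mcm genes, which encode the subunits of the helicase ring, were among them at both times. The calls of Mcm4 at both times and of Mcm6 at 3 h were lost under some alternatives. Mcm5 was at 35.8, 38.6 and 32.9 CPM in MKO 3 h, against 53.8, 54.3 and 51.6 CPM in WT 3 h. At 0 h Mcm5 was at 35.9, 34.7 and 35.6 CPM in MKO 0 h, against 53.1, 54.1 and 53.3 CPM in WT 0 h. These groups were narrow and far apart, with log2 fold changes of -0.58 (SE 0.0656 and adjusted p = 8.6e-06) at 3 h and -0.60 (SE 0.0655 and adjusted p = 1e-05) at 0 h. Mcm7 was at 26.9, 27.7 and 24.9 CPM in MKO 3 h, against 39.99, 37.99 and 38.9 CPM in WT 3 h. At 0 h Mcm7 was at 26.8, 28.1 and 29.6 CPM in MKO 0 h, against 42.3, 40.05 and 38.7 CPM in WT 0 h, with log2 fold changes of -0.56 and -0.52. Mcm6, the most abundant subunit per length, was at 84.9, 79.9 and 90.2 CPM in MKO 3 h, against 102, 107 and 104 CPM in WT 3 h. At 0 h Mcm6 was at 86.8, 85.9 and 87.5 CPM in MKO 0 h, against 119, 120.3 and 112 CPM in WT 0 h. Its groups did not overlap either, and its log2 fold changes were -0.29 (SE 0.0595 and adjusted p = 0.0012) at 3 h and -0.43 (SE 0.0594 and adjusted p = 7.4e-05) at 0 h.

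Mcm3 was at 44.6, 43.9 and 44.6 CPM in MKO 3 h, against 60.9, 58.7 and 61.1 CPM in WT 3 h. At 0 h Mcm3 was at 46.96, 44.5 and 41.6 CPM in MKO 0 h, against 58.8, 59.1 and 60.7 CPM in WT 0 h. Its log2 fold changes of -0.44 and -0.43 were almost equal at the 2 times. Mcm4 was at 39.1, 40.5 and 40.4 CPM in MKO 3 h, against 49.4, 45.3 and 54.6 CPM in WT 3 h. At 0 h Mcm4 was at 42.8, 47.01 and 36.6 CPM in MKO 0 h, against 49.3, 50.6 and 50.5 CPM in WT 0 h, with the smallest difference of the subunits at 0 h, -0.25 (SE 0.0881 and adjusted p = 0.042), and -0.32 (SE 0.0885 and adjusted p = 0.011) at 3 h. Of the loading factors, Cdt1 was at 27.3, 29.03 and 30.5 CPM in MKO 3 h, against 35.1, 31.2 and 40.1 CPM in WT 3 h. At 0 h Cdt1 was at 27.8, 29.5 and 29.4 CPM in MKO 0 h, against 40.2, 44.04 and 45.1 CPM in WT 0 h, with log2 fold changes of -0.29 and -0.58, both called. Cdc6, the other loading factor, had -0.54 (SE 0.129 and adjusted p = 0.0052) at 0 h and -0.25 at 3 h, where it was not called. Cdc45, which joins the Mcm ring to form the active helicase, was at 8.71, 8.85 and 7.37 CPM in MKO 3 h, against 9.15, 10.1 and 10.9 CPM in WT 3 h. At 0 h Cdc45 was at 5.56, 5.73 and 6.08 CPM in MKO 0 h, against 7.76, 8.87 and 7.21 CPM in WT 0 h, called at 0 h with -0.46 (SE 0.124 and adjusted p = 0.012) and not called at 3 h with -0.28.

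Gins2, a subunit of the GINS complex of the same helicase, was the only gene of this group above 0. It was at 28.5, 29.6 and 30.6 CPM in MKO 3 h, against 26.5, 24.5 and 25.9 CPM in WT 3 h. At 0 h Gins2 was at 28.3, 28.9 and 35.5 CPM in MKO 0 h, against 27.8, 27.3 and 28.3 CPM in WT 0 h. The MKO libraries lay above the WT libraries, by 28.34 against 28.29 CPM at the nearest, but the log2 fold changes of 0.21 and 0.15 were not called. Of its exon bases 67.3% are shared with exons of Gse1 on the opposite strand, and the use of strand in the counting is not given, so counts of the pair cannot be told apart. Gse1 itself had a log2 fold change of 0.79 (adjusted p = 0.0063) at 3 h and 0.13 (adjusted p = 0.68) at 0 h. The same holds in part for Ccnd1, with 23.4% of exon bases shared with Oraov1 (0.19 at 3 h and -0.03 at 0 h, neither called), for Kif20a, with 29.3% shared with Cdc23, and for Cdk4, with 19.7% shared with Tspan31, which had a mean of 189 TPM. Cdc23 had 0.27 at 3 h, called, and 0.02 at 0 h, not called. Tspan31 was called lower in MKO at both times, with -0.29 (edgeR adjusted p = 0.00087) at 3 h and -0.18 (adjusted p = 0.027) at 0 h.

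Genes of DNA synthesis, nucleotide supply and DNA methylation upkeep were lower in 5 of 6 cases at 3 h and in 6 of 6 at 0 h, with medians of -0.55 and -0.66. Pcna was at 381, 413 and 383 CPM in MKO 3 h, against 627, 639.9 and 631 CPM in WT 3 h. At 0 h Pcna was at 420.0, 408 and 481 CPM in MKO 0 h, against 582, 594 and 519.6 CPM in WT 0 h. The groups lay apart at both times, with log2 fold changes of -0.69 (SE 0.0683 and adjusted p = 2.3e-06) at 3 h and -0.37 (SE 0.068 and adjusted p = 0.00076) at 0 h. Rrm1 and Rrm2 encode the large and the small subunit of ribonucleotide reductase, which makes deoxyribonucleotides, and Rrm2 had the largest difference of the 52 genes at 0 h. Rrm2 was at 24.2, 22.3 and 18.6 CPM in MKO 3 h, against 35.9, 33.9 and 35.6 CPM in WT 3 h. At 0 h Rrm2 was at 19.2, 19.3 and 19.8 CPM in MKO 0 h, against 35.8, 39.8 and 36.5 CPM in WT 0 h, with log2 fold changes of -0.70 (SE 0.0889 and adjusted p = 2.4e-05) at 3 h and -0.94 (SE 0.0891 and adjusted p = 2.8e-06) at 0 h. Rrm1 was at 55.4, 52.6 and 47.5 CPM in MKO 3 h, against 79.2, 79.7 and 77.8 CPM in WT 3 h. At 0 h Rrm1 was at 50.7, 48 and 45.05 CPM in MKO 0 h, against 79.8, 72.9 and 72.7 CPM in WT 0 h, with -0.61 (SE 0.0713 and adjusted p = 1.1e-05) at 3 h and -0.65 (SE 0.0714 and adjusted p = 1e-05) at 0 h. The MKO libraries of both subunits lay below all WT libraries.

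Uhrf1, which brings the maintenance DNA methyltransferase to newly copied DNA, was at 26.1, 25.01 and 23.6 CPM in MKO 3 h, against 35.7, 32.9 and 36.03 CPM in WT 3 h. At 0 h Uhrf1 was at 21.2, 22.7 and 20.3 CPM in MKO 0 h, against 37.2, 38.5 and 33.3 CPM in WT 0 h. Its log2 fold changes were -0.49 (SE 0.0782 and adjusted p = 0.00019) at 3 h and -0.76 (SE 0.0786 and adjusted p = 5.9e-06) at 0 h, without overlap of the groups. The thymidylate supply genes Tk1 (thymidine kinase) and Tyms (thymidylate synthase) both had -0.66 at 0 h. At 3 h Tk1 had -0.45 (SE 0.0903 and adjusted p = 0.0012) and was called, and Tyms had -0.30 and was not.

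**Figure D4:**
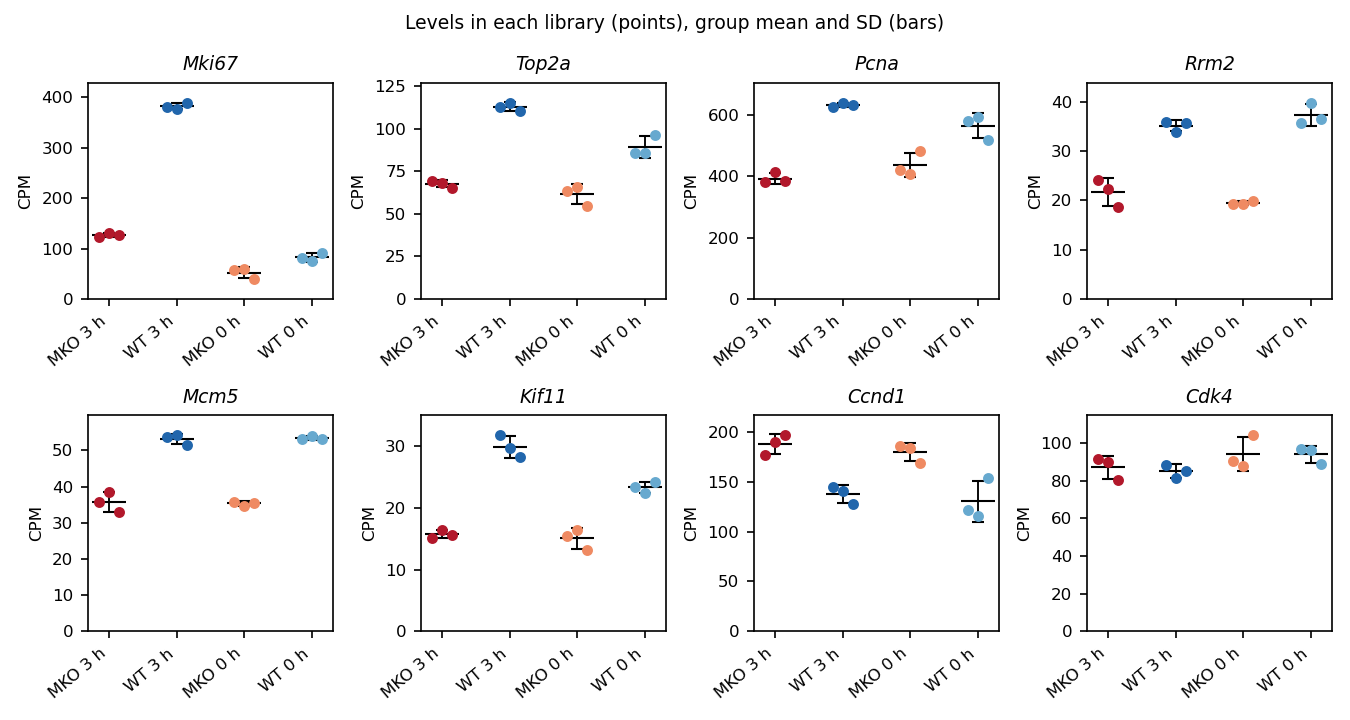
Level in CPM (vertical axes from 0) of 8 of the genes in each library (points) with the group mean and SD (bars, n = 3), MKO 3 h, WT 3 h, MKO 0 h and WT 0 h from left to right. The MKO points lie below the WT points of the same time for Mki67, Top2a, Pcna, Rrm2, Mcm5 and Kif11, above them for Ccnd1, and among them for Cdk4.

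Of the 26 mitosis genes 22 were lower at each time and none was higher, with medians of -0.65 at 3 h and -0.55 at 0 h. Of the 26 G1 and S phase genes 16 were lower at 3 h and 18 at 0 h, with medians of -0.33 and -0.45. Whether the 2 sets differ was not tested. Of the mitotic cyclins and kinases 7 of 7 were lower at 3 h and 6 of 7 at 0 h. Ccna2, cyclin A2, which acts in S phase and G2, was at 17.9, 18.7 and 15.7 CPM in MKO 3 h, against 26.2, 27.9 and 24.7 CPM in WT 3 h. At 0 h Ccna2 was at 17.6, 20.7 and 18.7 CPM in MKO 0 h, against 26.2, 25.5 and 27.3 CPM in WT 0 h, with log2 fold changes of -0.59 (SE 0.0885 and adjusted p = 0.00011) and -0.47 (SE 0.0874 and adjusted p = 0.00094). Ccnb2, a B-type cyclin of mitotic entry, was at 5.05, 6.13 and 5.77 CPM in MKO 3 h, against 9.84, 7.66 and 9.08 CPM in WT 3 h. At 0 h Ccnb2 was at 5.37, 5.12 and 7.87 CPM in MKO 0 h, against 8.99, 9.34 and 9.31 CPM in WT 0 h, with -0.65 (SE 0.16 and adjusted p = 0.0047) and -0.59 (SE 0.157 and adjusted p = 0.011). Both cyclins were lower in all MKO libraries than in any WT library of the same time.

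Cdk1, the kinase that these cyclins activate, was called lower at 3 h and not at 0 h. It was at 23.3, 19.9 and 20.1 CPM in MKO 3 h, against 25.2, 26.1 and 24.3 CPM in WT 3 h. At 0 h Cdk1 was at 25.6, 22.3 and 26.1 CPM in MKO 0 h, against 24.2, 27.1 and 21.7 CPM in WT 0 h. At 0 h the groups overlapped with a log2 fold change of 0.02, and at 3 h it was -0.26 (SE 0.098 and adjusted p = 0.046), near the threshold. The remaining members were lower at both times: Plk1, a kinase of mitotic entry and exit, had -0.65 at 3 h and -0.55 at 0 h, Aurka, the kinase of the spindle poles, had -0.72 and -0.42, Ccnb1 had -0.51 and -0.52, and Melk had -0.67 and -0.62.

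Genes of the spindle checkpoint and the anaphase-promoting complex were lower in 4 of 5 cases at 3 h and 5 of 5 at 0 h. Ube2c, the ubiquitin-conjugating enzyme of the anaphase-promoting complex, was at 8.42, 8.48 and 8.497 CPM in MKO 3 h, against 15.1, 15.7 and 15.1 CPM in WT 3 h. At 0 h Ube2c was at 8.86, 8.48 and 10.96 CPM in MKO 0 h, against 14.6, 13.1 and 12.7 CPM in WT 0 h, with log2 fold changes of -0.85 (SE 0.106 and adjusted p = 1.9e-05) and -0.51 (SE 0.105 and adjusted p = 0.0019). Bub1b, which encodes the checkpoint protein BubR1, was at 11.5, 11.6 and 11.8 CPM in MKO 3 h, against 18.3, 20.3 and 19.5 CPM in WT 3 h. At 0 h Bub1b was at 14.3, 13.03 and 13.9 CPM in MKO 0 h, against 18.6, 20.6 and 18.1 CPM in WT 0 h, with -0.73 (SE 0.0836 and adjusted p = 8.6e-06) and -0.48 (SE 0.082 and adjusted p = 0.00049). Neither gene had overlapping groups. Cdc20, the activator of the anaphase-promoting complex, was at 4.82, 5.32 and 3.99 CPM in MKO 3 h, against 6.58, 4.51 and 5.32 CPM in WT 3 h. At 0 h Cdc20 was at 4.15, 4.31 and 4.78 CPM in MKO 0 h, against 5.88, 7.52 and 6.01 CPM in WT 0 h. Its groups overlapped at 3 h (-0.22, not called) and not at 0 h, -0.55 (SE 0.167 and adjusted p = 0.021). The checkpoint kinases Bub1 and Ttk had log2 fold changes of -0.65 and -0.45 at 3 h and of -0.82 and -0.57 at 0 h, all called. At 3 h Ttk was near the threshold (edgeR adjusted p = 0.05 after rounding), and its calls at both times were lost under some alternatives.

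The chromosomal passenger complex, which corrects faulty attachments of chromosomes to the spindle, was lower in 2 of its 3 genes at each time. Its kinase Aurkb was at 9.17, 8.79 and 9.905 CPM in MKO 3 h, against 13.98, 14.4 and 13.5 CPM in WT 3 h. At 0 h Aurkb was at 9.099, 9.43 and 9.87 CPM in MKO 0 h, against 13.97, 13.5 and 16.1 CPM in WT 0 h, with -0.58 (SE 0.0953 and adjusted p = 0.00023) and -0.62 (SE 0.0944 and adjusted p = 0.00018). Birc5, which encodes survivin, was at 8.94, 9.595 and 9.11 CPM in MKO 3 h, against 13.3, 13.9 and 12.3 CPM in WT 3 h. At 0 h Birc5 was at 8.37, 8.58 and 10.5 CPM in MKO 0 h, against 13.8, 15.7 and 12.5 CPM in WT 0 h, with -0.51 (SE 0.115 and adjusted p = 0.0025) and -0.61 (SE 0.114 and adjusted p = 0.00089). Cdca8, which encodes borealin, was at 12.02, 13.3 and 12.8 CPM in MKO 3 h, against 15.9, 15 and 13.7 CPM in WT 3 h. At 0 h Cdca8 was at 13.7, 12.3 and 13.7 CPM in MKO 0 h, against 14.2, 15.3 and 15.4 CPM in WT 0 h. The Cdca8 groups did not overlap, but the log2 fold changes of -0.23 and -0.18 were not called.

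Spindle, kinetochore and cytokinesis genes were lower in 7 of 9 cases at each time. Tpx2, which nucleates spindle microtubules and activates the kinase Aurora A, was at 32.6, 32.1 and 31.6 CPM in MKO 3 h, against 57.98, 57.96 and 54.4 CPM in WT 3 h. At 0 h Tpx2 was at 26.9, 31.8 and 30.4 CPM in MKO 0 h, against 42.7, 43.8 and 37.9 CPM in WT 0 h, with -0.82 (SE 0.0761 and adjusted p = 1.1e-06) and -0.48 (SE 0.077 and adjusted p = 0.00026). Kif11, the kinesin that pushes the spindle poles apart, was at 15.1, 16.5 and 15.6 CPM in MKO 3 h, against 31.8, 29.6 and 28.1 CPM in WT 3 h. At 0 h Kif11 was at 15.4, 16.4 and 13.2 CPM in MKO 0 h, against 23.4, 22.4 and 24.1 CPM in WT 0 h, with -0.92 (SE 0.0883 and adjusted p = 1.6e-06) and -0.63 (SE 0.0894 and adjusted p = 9.4e-05). Both genes were lower in every MKO library than in any WT library of the same time. Nusap1, a microtubule-binding protein of the spindle, was at 9.23, 10.4 and 10.2 CPM in MKO 3 h, against 18.7, 18.1 and 18.2 CPM in WT 3 h. At 0 h Nusap1 was at 9.77, 10.2 and 10.5 CPM in MKO 0 h, against 15.7, 16.7 and 14.2 CPM in WT 0 h, with -0.88 (SE 0.088 and adjusted p = 2.5e-06) and -0.61 (SE 0.0884 and adjusted p = 0.00012).

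Kif23, a kinesin of the central spindle in cytokinesis, was at 11.3, 13.1 and 11.4 CPM in MKO 3 h, against 16.4, 18.5 and 14.6 CPM in WT 3 h. At 0 h Kif23 was at 11.7, 10.8 and 9.42 CPM in MKO 0 h, against 11.7, 12.98 and 11.3 CPM in WT 0 h, called at 3 h with -0.47 (SE 0.112 and adjusted p = 0.0042) and not at 0 h with -0.18. Cenpe, a kinetochore kinesin, had -0.86 at 3 h and -0.63 at 0 h, Cenpf had -0.64 and -0.58, and Prc1, which bundles microtubules of the midzone, had -0.59 and -0.62, all called. The Cenpf groups overlapped at 0 h, and its calls at both times were lost under some alternatives. Hmmr, a spindle protein, had -0.41 at 0 h, called, and -0.20 at 3 h, not called. Kif20a, another kinesin of cytokinesis, had -0.35 and -0.30, not called.

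Mki67, which encodes the proliferation marker Ki-67 that coats mitotic chromosomes (chr7:135689784-135716361, minus strand, in the table's mm10 coordinates), had the largest genotype difference of the 52 genes at 3 h. It was at 123, 130.5 and 126 CPM in MKO 3 h, against 380.3, 377 and 389 CPM in WT 3 h. At 0 h Mki67 was at 57.04, 59.7 and 39.3 CPM in MKO 0 h, against 80.6, 75.6 and 92.1 CPM in WT 0 h. The log2 fold changes were -1.59 (SE 0.117 and adjusted p = 1.2e-07) at 3 h and -0.67 (SE 0.12 and adjusted p = 0.00065) at 0 h, and the groups lay apart at both times. Top2a, the topoisomerase that untangles sister chromatids, was at 69.4, 68.2 and 65.3 CPM in MKO 3 h, against 113, 115 and 110.3 CPM in WT 3 h. At 0 h Top2a was at 63.5, 65.96 and 54.9 CPM in MKO 0 h, against 85.7, 85.6 and 96.5 CPM in WT 0 h, with -0.74 (SE 0.0747 and adjusted p = 2.7e-06) and -0.54 (SE 0.075 and adjusted p = 8.2e-05).

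Other measures of the libraries also moved with genotype. Summed over 8 macrophage markers, all tested, the level was 7898 to 8102 CPM in MKO 3 h, against 10246 to 10458.5 CPM in WT 3 h, and 7694 to 7728 CPM in MKO 0 h, against 10144 to 10532 CPM in WT 0 h. Without Adgre1, the marker with most counts, the sum was 5887 to 6082 CPM in MKO 3 h, against 7268 to 7407 CPM in WT 3 h, and 5857 to 5914 CPM in MKO 0 h, against 7221 to 7371 CPM in WT 0 h. The 6 B cell markers, 4 of them tested, summed to 24.8 to 26.5 CPM in MKO 3 h, against 15.7 to 19.4 CPM in WT 3 h, and to 29.1 to 39.1 CPM in MKO 0 h, against 18.1 to 20.3 CPM in WT 0 h, mostly Ighm. Without Ighm the sum was 9.46 to 12.1 CPM in MKO 3 h, against 7.17 to 9.84 CPM in WT 3 h, and 10.9 to 13.8 CPM in MKO 0 h, against 8.65 to 10.2 CPM in WT 0 h, and Pax5 was at 0.550 CPM at most. The 4 eosinophil markers, 3 of them tested, summed to 40.1 to 51.9 CPM in MKO 3 h, against 74.4 to 82.4 CPM in WT 3 h, and to 39.8 to 42.1 CPM in MKO 0 h, against 45.2 to 53.0 CPM in WT 0 h, mostly Ccr3. Without Ccr3 the order turned, with 16.3 to 21.1 CPM in MKO 3 h, against 4.37 to 8.05 CPM in WT 3 h, and 17.3 to 19.1 CPM in MKO 0 h, against 4.87 to 7.45 CPM in WT 0 h, and Epx was at 0.672 CPM at most. The 7 mesothelial and fibroblast markers, 3 of them tested, summed to 1.78 to 2.23 CPM in MKO 3 h, against 4.15 to 5.58 CPM in WT 3 h, and to 1.75 to 3.14 CPM in MKO 0 h, against 3.36 to 4.56 CPM in WT 0 h, mostly Dcn. Without Dcn the groups overlapped, with 0.751 to 1.30 CPM in MKO 3 h, against 0.560 to 2.25 CPM in WT 3 h, and 0.758 to 1.79 CPM in MKO 0 h, against 0.411 to 1.02 CPM in WT 0 h, and Wt1 was at 0 in all libraries. The neutrophil sums overlapped, with 217 to 288 CPM in MKO 3 h, 222 to 267 CPM in WT 3 h, 228 to 303 CPM in MKO 0 h and 173 to 263 CPM in WT 0 h, and the mast cell markers Mcpt4, Cma1 and Tpsb2 were at 0 throughout. The T and NK cell markers other than Cd4 summed to 1.10 CPM at most, and the 4 dendritic cell markers to 7.51 CPM at most. The part of these cells in the genotype difference was not tested.

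The slope of a library's log2 deviations from the gene means on log2 exon length did not overlap between the genotypes at 3 h, with 0.0429 to 0.0847 in MKO 3 h and -0.0240 to -0.0098 in WT 3 h, while at 0 h the values were 0.0460, 0.0735 and -0.107 in MKO and -0.0666, -0.0833 and 0.0195 in WT, with replicate 3 on the other side of its mates in both groups. The 52 genes had a median exon length of 4346 bases, close to the 4380 bases of all genes tested. By genotype at 3 h the members at or above their median length had a median log2 fold change of -0.48 and the shorter ones -0.51, and at 0 h these were -0.52 and -0.50. For LPS the longer members had a median of 0.05 and the shorter ones -0.03, in MKO and in WT alike. Over all genes tested, split at the same length, these medians were 0.06 and -0.09 in MKO and 0.05 and -0.05 in WT. The part of length in the LPS calls was not tested.

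LPS changed few of these genes. In MKO cells 3 of the 52 were higher at 3 h than at 0 h (Mki67, E2f8 and Cdc45) and 1 was lower (Ccnd3), where 15.8% of all genes were called, 9.75% higher and 6.08% lower. In WT cells 10 were higher (E2f8, Cdc45, Aurka, Tpx2, Kif11, Kif23, Cenpe, Nusap1, Mki67 and Top2a) and 2 were lower (Mcm6 and Cdt1), where 32.5% of all genes were called, 17.8% higher and 14.6% lower. The median log2 fold change (3 h over 0 h) of the 52 genes was 0.00 in MKO and -0.01 in WT, beside -0.01 and 0.00 over all genes tested. With TMM scaling 7.69% of the 52 were thus called in MKO and 23.1% in WT, below the share of all genes. The log2 TMM factors of 3 h minus 0 h differed by -0.09 in MKO and -0.22 in WT. TMM thus raised the log2 fold changes of this comparison by these amounts against library size alone. With library size alone 2 genes were higher and 5 lower in MKO, and 3 were higher (Mki67, E2f8 and Tpx2) and 26 lower in WT. In that scaling 13.5% of the 52 were called in MKO, against 20.8% of all genes, and 55.8% in WT, against 51.5% of all genes, of which 41.8% were lower. With replicate 3 of both 0 h groups left out, 3 genes were higher and 2 lower in MKO, and 10 were higher and 4 lower in WT. With replicates 1 and 2 of each group summed, 1 gene was higher and none lower in MKO, and 4 were higher and none lower in WT.

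Of the 10 genes higher with LPS in WT, 8 were mitosis genes and none of the 26 mitosis genes was lower, whereas with library size alone 8 mitosis genes were lower. Mki67 had the largest response in either genotype. It was at 123, 130.5 and 126 CPM in MKO 3 h, against 57.04, 59.7 and 39.3 CPM in MKO 0 h. In WT Mki67 was at 380.3, 377 and 389 CPM in WT 3 h, against 80.6, 75.6 and 92.1 CPM in WT 0 h. This was a log2 fold change of 1.29 (SE 0.12 and adjusted p = 1.9e-06) in MKO and 2.21 (SE 0.12 and adjusted p = 1.7e-09) in WT, without overlap, and all 3 WT 3 h libraries were above every other library. E2f8 was at 18.8, 20.4 and 16.1 CPM in MKO 3 h, against 14.1, 13.5 and 11.2 CPM in MKO 0 h. In WT E2f8 was at 38.4, 39.2 and 38.5 CPM in WT 3 h, against 16.6, 15.97 and 23.4 CPM in WT 0 h, with 0.51 (SE 0.14 and adjusted p = 0.024) and 1.05 (SE 0.133 and adjusted p = 2.1e-05). In MKO 0 h the replicate 3 that stood apart was the lowest of its group for both genes, and in WT 0 h the highest.

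Cdc45 was the remaining gene higher in both genotypes. It was at 8.71, 8.85 and 7.37 CPM in MKO 3 h, against 5.56, 5.73 and 6.08 CPM in MKO 0 h. In WT Cdc45 was at 9.15, 10.1 and 10.9 CPM in WT 3 h, against 7.76, 8.87 and 7.21 CPM in WT 0 h, with 0.51 (SE 0.122 and adjusted p = 0.0098) in MKO and 0.34 (SE 0.119 and adjusted p = 0.04) in WT, and no group overlapped. Tpx2, Kif11 and Top2a were higher in WT by smaller steps. Tpx2 was at 32.6, 32.1 and 31.6 CPM in MKO 3 h, against 26.9, 31.8 and 30.4 CPM in MKO 0 h, with 0.11, not called. In WT Tpx2 was at 57.98, 57.96 and 54.4 CPM in WT 3 h, against 42.7, 43.8 and 37.9 CPM in WT 0 h, with 0.45 (SE 0.0753 and adjusted p = 0.00028). Kif11 had 0.07 in MKO, not called, and was at 31.8, 29.6 and 28.1 CPM in WT 3 h, against 23.4, 22.4 and 24.1 CPM in WT 0 h, with 0.36 (SE 0.0862 and adjusted p = 0.005). Top2a had 0.14 in MKO, not called, and was at 113, 115 and 110.3 CPM in WT 3 h, against 85.7, 85.6 and 96.5 CPM in WT 0 h, with 0.34 (SE 0.0741 and adjusted p = 0.0025). In each of these 3 genes the WT 3 h libraries were above all WT 0 h libraries, whereas the MKO groups overlapped. The other genes higher in WT were Aurka, with 0.23 in MKO and 0.53 in WT, Kif23, with 0.17 in MKO and 0.45 in WT, Cenpe, with 0.16 in MKO and 0.38 in WT, and Nusap1, with -0.03 in MKO and 0.24 in WT. None of these was called in MKO. The interaction test called none of the genes that were called in WT alone, so a difference in their response between the genotypes is not shown.

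The genes lower with LPS under TMM scaling were Ccnd3 in MKO and Cdt1 and Mcm6 in WT, while the 26 lower in WT with library size alone were 18 G1 and S phase genes and 8 mitosis genes. In MKO, Ccnd3 was at 42.8, 40.2 and 42.5 CPM in MKO 3 h, against 47.6, 49.8 and 50.4 CPM in MKO 0 h, with -0.24 (SE 0.063 and adjusted p = 0.02), and it had -0.11 in WT, not called. Cdt1 and Mcm6 had 0.00 and -0.03 in MKO, not called. In WT, Cdt1 was at 35.1, 31.2 and 40.1 CPM in WT 3 h, against 40.2, 44.04 and 45.1 CPM in WT 0 h, with -0.28 (SE 0.0874 and adjusted p = 0.024). Mcm6 was at 102, 107 and 104 CPM in WT 3 h, against 119, 120.3 and 112 CPM in WT 0 h, with -0.17 (SE 0.0592 and adjusted p = 0.045). The WT groups of both genes did not overlap, with 40.12 against 40.22 CPM at the nearest for Cdt1. The call of Ccnd3 was lost without replicate 2 or replicate 3 of MKO 3 h. The count of 2 lower in WT was 0 without replicate 2 of WT 0 h or replicate 1 of WT 3 h, 5 without replicate 3 of MKO 0 h, and 1 without replicate 1 of WT 0 h, replicate 2 or 3 of WT 3 h, replicate 1 or 2 of MKO 0 h or replicate 1 of MKO 3 h. Bub1b, near the threshold in MKO at -0.24 (SE 0.0848 and adjusted p = 0.073), was at 11.5, 11.6 and 11.8 CPM in MKO 3 h, against 14.3, 13.03 and 13.9 CPM in MKO 0 h.

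**Figure D5:**
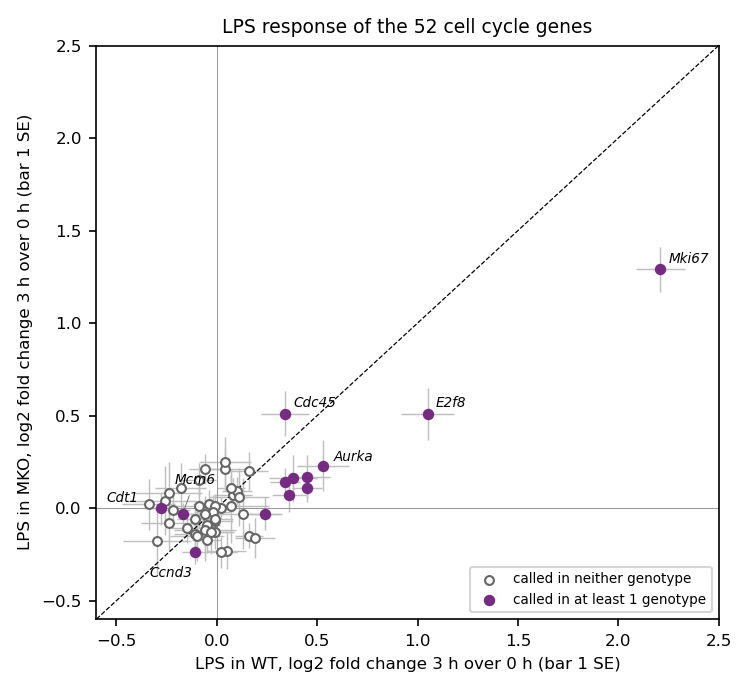
Log2 fold change of 3 h over 0 h in MKO (vertical axis) against that in WT (horizontal axis) for the 52 genes, with 1 SE as bars and the line of equal response dashed. Most points crowd around 0, Mki67 lies at 1.29 in MKO and 2.21 in WT, and E2f8 at 0.51 in MKO and 1.05 in WT.

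The test of whether the LPS response differed by genotype (response in MKO minus response in WT) called 1 of the 52 genes, Mki67, and none higher in MKO, where 6.80% of all genes were called, 4.41% lower and 2.39% higher. Mki67 had an interaction of -0.92 (SE 0.166 and adjusted p = 0.0029). At an unadjusted p under 0.05 there were 8 genes with a smaller and 2 with a larger response in MKO, where 10.1% and 8.05% of all genes had this, and DESeq2 called 2 lower and 0 higher. Mki67 made up 7.17, 7.37 and 7.45% of the summed CPM of the 52 genes in MKO 3 h, against 14.8, 14.7 and 15.3% in WT 3 h. At 0 h its share was 3.40, 3.56 and 2.31% in MKO 0 h, against 3.75, 3.53 and 4.35% in WT 0 h. Without Mki67 the sum was 1601 ± 35.8 CPM in MKO 3 h, against 2174 ± 12.5 CPM in WT 3 h, and 1633 ± 24.8 CPM in MKO 0 h, against 2055 ± 23.1 CPM in WT 0 h (SD, n = 3 each), so the genotypes lay apart without it. The genotype test at 3 h and the LPS test in WT share the WT 3 h libraries.

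The interaction of Mki67 was -1.17 (edgeR adjusted p = 2.1e-11) with replicate 3 of both 0 h groups left out. In that fit 6 genes were lower and 2 higher in all. Genotype at 0 h then coincides with the Malat1 difference between libraries, so this fit cannot tell them apart. With replicates 1 and 2 of each group summed, which leaves 2 libraries per group, the interaction of Mki67 was -0.81. Its edgeR adjusted p was then 0.14, so the call was lost. Over the other alternatives the interaction of Mki67 ran from -0.79 to -1.08 with adjusted p from 4.1e-06 to 0.014. The interactions of E2f8, -0.54 (SE 0.193 and adjusted p = 0.13), Tpx2, -0.34 (SE 0.108 and adjusted p = 0.083), and Pcna, -0.32 (SE 0.0961 and adjusted p = 0.068), were not called. A second gene was called without replicate 3 of WT 0 h (E2f8), without replicate 1 of MKO 0 h (Tpx2) and without replicate 2 of MKO 0 h (Pcna).

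The wider set of 115 cell cycle genes outside the 52, of which 114 were tested, went the same way by genotype. At 3 h 73 were lower and 11 higher in MKO, with a median of -0.43, and at 0 h 64 were lower and 7 higher, with a median of -0.38. Of all genes tested 23.0% were lower and 19.8% higher at 3 h, and 16.4% were lower and 16.5% higher at 0 h. Of 42 other mitosis genes 33 were lower at 3 h and 36 at 0 h and none was higher, with medians of -0.58 and -0.60. Mad2l1, the checkpoint protein MAD2, was at 23.9, 20.4 and 20.5 CPM in MKO 3 h, against 53.9, 57.7 and 53.6 CPM in WT 3 h. At 0 h Mad2l1 was at 15.8, 16.5 and 16.7 CPM in MKO 0 h, against 24.96, 25.7 and 24.4 CPM in WT 0 h. Its log2 fold changes were -1.35 (SE 0.0744 and adjusted p = 7.3e-09) and -0.61 (SE 0.0781 and adjusted p = 4e-05), the groups lay apart, and its interaction was -0.74 (SE 0.108 and adjusted p = 0.00045). The septin and actin scaffold Anln had -0.88 and -0.68, and the spindle protein Ckap2l had -1.16 and -0.89, all called.

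Of 38 other replication genes 22 were lower and 1 higher at 3 h, and 19 were lower and none higher at 0 h, with medians of -0.42 and -0.33. Lig1, the ligase that joins Okazaki fragments, was at 25.8, 25.8 and 24.1 CPM in MKO 3 h, against 44.6, 42.7 and 44.4 CPM in WT 3 h. At 0 h Lig1 was at 22.8, 24.8 and 21.2 CPM in MKO 0 h, against 39.6, 41.4 and 38.6 CPM in WT 0 h, with -0.80 (SE 0.0709 and adjusted p = 7.4e-07) and -0.80 (SE 0.0714 and adjusted p = 1.7e-06). The initiation factor Mcm10 had -0.86 and -0.71, and the fork protection gene Timeless had -1.02 and -0.77, all called. The Lig1 groups did not overlap at either time.

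Regulators of the cycle did not move as one. Of 16 pocket proteins, other E2F and MuvB genes 7 were lower and 5 higher at 3 h, and 4 were lower and 3 higher at 0 h. For this list and the next, the shares of all genes were 23.0% lower and 19.8% higher at 3 h. At 0 h these shares were 16.4% and 16.5%, and whether the lists differ from all genes was not tested. The pocket protein gene Rbl1 (p107) had -0.55 (SE 0.0746 and adjusted p = 4.4e-05) at 3 h and -0.62 (SE 0.0745 and adjusted p = 2.3e-05) at 0 h, whereas Tfdp2, a dimer partner of E2F, had 1.17 (SE 0.122 and adjusted p = 3.7e-06) and 0.70 (SE 0.118 and adjusted p = 0.00041), and the repressor E2f6 had 0.60 (SE 0.104 and adjusted p = 0.0004) and 0.47 (SE 0.101 and adjusted p = 0.0028). Of 12 other cyclins, kinases and kinase regulators 8 were lower and 4 higher at 3 h, and 3 were lower and 2 higher at 0 h. Wee1, the inhibitory kinase of Cdk1, was at 11.1, 8.91 and 10.2 CPM in MKO 3 h, against 6.96, 6.25 and 6.67 CPM in WT 3 h. At 0 h Wee1 was at 12.5, 11.7 and 11.9 CPM in MKO 0 h, against 13.5, 13.04 and 12.6 CPM in WT 0 h, with 0.61 (SE 0.104 and adjusted p = 0.00034) and -0.12, not called, and an interaction of 0.73 (SE 0.141 and adjusted p = 0.0051). Pkmyt1, a related kinase, had the opposite sign at 3 h, -1.17 (SE 0.148 and adjusted p = 2.3e-05), and Ccnd2, cyclin D2, had -0.29 at 3 h, called, and 0.05 at 0 h, not called.

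Of the 7 genes for inhibitors of cyclin-dependent kinases 6 were tested (Cdkn2a was not), with 3 lower and 1 higher at 3 h and 2 lower and 2 higher at 0 h. The shares of all genes were 23.0% lower and 19.8% higher at 3 h, and 16.4% lower and 16.5% higher at 0 h. Cdkn1a, which encodes p21, was at 888, 886 and 937 CPM in MKO 3 h, against 1034, 1012 and 942 CPM in WT 3 h. At 0 h Cdkn1a was at 382, 399 and 413 CPM in MKO 0 h, against 239, 235 and 217 CPM in WT 0 h. It was thus higher in MKO at 0 h, with 0.79 (SE 0.0563 and adjusted p = 2.1e-07), and at 3 h the difference of -0.14 was not called (adjusted p = 0.054). With LPS it rose by 1.18 (SE 0.0562 and adjusted p = 7.4e-10) on the log2 scale in MKO and 2.11 (SE 0.058 and adjusted p = 5.4e-13) in WT, with an interaction of -0.93 (SE 0.0789 and adjusted p = 3.3e-06), so Cdkn1a at 0 h differed in the direction opposite to most of the 52 genes. Cdkn1b, which encodes p27, was at 27, 27.2 and 29.1 CPM in MKO 3 h, against 47.2, 50.8 and 46.5 CPM in WT 3 h, with -0.79 (SE 0.0747 and adjusted p = 1.3e-06), and at 35.7, 34.5 and 30.4 CPM in MKO 0 h, against 35.9, 34.5 and 37.4 CPM in WT 0 h, with -0.10, not called. Its response to LPS was -0.27 in MKO and 0.42 in WT, both called, with an interaction of -0.69 (SE 0.105 and adjusted p = 0.00067). Cdkn1c, which encodes p57, had 0.84 (SE 0.187 and adjusted p = 0.0023) at 3 h and 1.50 (SE 0.177 and adjusted p = 2e-05) at 0 h at levels of 1.74 to 6.96 CPM.

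In the LPS comparisons the 114 genes had 5 higher and 8 lower in MKO and 14 higher and 13 lower in WT, with medians of -0.07 and -0.02. Of all genes tested 9.75% were higher and 6.08% lower in MKO, and 17.8% were higher and 14.6% lower in WT. Mad2l1 and Ckap2l were higher in both, by 0.40 and 0.57 in MKO and 1.14 and 0.84 in WT. Besides Cdkn1a, Cdkn1b, Wee1 and Mad2l1 no gene of the 114 was called in the interaction test.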

How the data were processed

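RNA of 12 libraries of mouse peritoneal macrophages was sequenced after TRIzol lysis and a standard Illumina preparation, per the labels' protocols. The submitters' processing notes name fastp and mm10. Aligner, counter, strand setting and annotation were not given in the sources used here. The authors deposited 1 table of 48709 genes with raw counts per gene and library, per the file headers, and TPM in the same table. Counts were used for tests and TPM for levels between genes. Total counts ran from 14762709 to 20778862 per library. Genes with more counts have less counting error.

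The 52 members and the other gene lists were chosen with earlier results of these data known. Groups follow the sample titles. The count test was edgeR's quasi-likelihood test (version 4.0.16, R 4.3.3), with TMM factors, filterByExpr on the 4 groups and 1 mean per group over all 12 libraries. Its comparisons were genotype at 3 h and at 0 h, LPS in MKO and in WT, and the interaction. Any count was found for 19195 genes, of which 12455 passed the filter. A call needs a p under 0.05 after Benjamini-Hochberg adjustment, whatever the fold. CPM uses TMM-scaled library sizes. To get an SE, the log2 fold change was divided by the root of F. The fit was tested on simulated data.

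Values in every library are given for the 3 most abundant members of each role, the 5 with the smallest p per comparison and those called against the trend. Of the wider lists the 3 with the smallest p are named. Sgo1, Sgo2a and Itgam were matched by gene ID. Exon lengths and strands came from GENCODE M21 (48349 IDs, 99.3%), promoters from RefSeq.

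Alternatives were RLE scaling, library size only, DESeq2 1.42.0, no filter, a minimum mean of 5 CPM, a replicate block, fits of only the groups compared, and each library left out. Leaving out replicate 3 of both 0 h groups, and summing replicates 1 and 2 in case they are technical, were chosen after seeing the data.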

Additional observations from a re-analysis of the deposited data

Results flagged for a closer look

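Among the 52 genes, Mki67 was the 1 whose response to LPS differed between the genotypes by a test of the difference itself: the log2 response was 1.29 in MKO and 2.21 in WT, and the interaction was -0.92 (SE 0.166, edgeR adjusted p = 0.0029). The response was positive in both genotypes, with all 3 h libraries above all 0 h libraries. Among the 114 wider cell cycle genes the same test called Cdkn1a at -0.93, Mad2l1 at -0.74, Cdkn1b at -0.69 and Wee1 at 0.73.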

How the results depend on the processing

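The main counts of the 52 genes (lower and higher in MKO at 3 h and 0 h, 38 and 1, 40 and 1; higher and lower with LPS, 3 and 1 in MKO, 10 and 2 in WT; interaction 0 higher and 1 lower) changed by over 1.5 times as follows. With library size only there were 3 higher by genotype at 3 h, 2 at 0 h, 5 lower with LPS in MKO, 3 higher and 26 lower with LPS in WT, and 2 higher in the interaction. This scaling turned the sign of 6 of the 52 genes by genotype at 3 h, 0 at 0 h, 10 with LPS in MKO, 14 with LPS in WT and 15 in the interaction. Among these, 3 had a call in either scaling: Mcm3 and Bub1b, each with -0.21 for LPS in WT, and Ccnd3 with 0.01 for genotype at 3 h. A filter at a mean of 5 CPM gave 2 higher by genotype at 3 h, 2 lower with LPS in MKO and 4 lower with LPS in WT. No filter gave 1 lower with LPS in WT, only the groups compared (not run for the interaction, which uses all 4) gave 2 higher by genotype at 3 h, and DESeq2 gave 2 lower in the interaction. Without replicate 3 of both 0 h groups there were 2 higher by genotype at 3 h, 2 lower with LPS in MKO, 4 lower with LPS in WT, and 2 higher and 6 lower in the interaction. With replicates 1 and 2 summed there were 0 higher by genotype at 0 h, 1 higher and 0 lower with LPS in MKO, 4 higher and 0 lower with LPS in WT, and 0 lower in the interaction, with the genotype counts at 33 lower at 3 h and 31 at 0 h. Leaving out 1 library at a time gave 33 to 39 lower and 1 to 2 higher by genotype at 3 h, 34 to 40 lower and 1 to 1 higher at 0 h, 2 to 4 higher and 0 to 1 lower with LPS in MKO, 7 to 11 higher and 0 to 5 lower with LPS in WT, and 0 to 0 higher and 1 to 2 lower in the interaction. The cause of these shifts was not tested.

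Replicate numbers did not pair the libraries, with correlations of same-numbered deviations from -0.46 to 0.13. Replicate 3 of each 0 h group correlated with replicates 1 and 2 of the other 0 h group at 0.28 to 0.34. A replicate block gave 36 lower and 1 higher by genotype at 3 h, 38 and 1 at 0 h, 2 higher and 1 lower with LPS in MKO, 8 and 1 in WT, and 0 and 1 in the interaction. Depth limits the genes with few counts, such as Ttk with 43 to 81.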
